A study of Mus musculus with 6 samples.

Results

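Aminoacyl-tRNA synthetases join each amino acid to the tRNA that carries its codon-matching anticodon, and so supply every ribosome with its substrates. Transcripts of 37 such enzymes were described here, out of 24982 genes in the authors' deposited table, of which 14835 were tested. They were taken by symbol, a capital letter followed by ars and optionally 1 or 2, together with Farsa, Farsb and Eprs, with a base mean above 3.3 normalized counts. All 37 genes with such a symbol passed that limit and 0 fell at or under it; the lowest, Pars2, had a base mean of 107 in the authors' deposited table. The family was described as 20 enzymes of the cytosol and 17 of mitochondria.

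Cytosol and mitochondrion translate separately, and most amino acids have an enzyme for each compartment, both encoded in the nucleus. Gars and Kars serve both compartments from a single gene. In the cytosol 8 of the enzymes sit with 3 scaffold proteins in the multi-synthetase complex. The transcription factor ATF4, the effector of the integrated stress response, drives many cytosolic synthetase genes together with genes of amino acid synthesis and uptake when amino acids run short.

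Polyadenylated RNA was sequenced from cumulus granulosa cells of Kun-Ming mice, cells of the follicle that surround and nourish the egg. The groups were 3 libraries labelled control and 3 labelled Atg5-KD, each numbered 2, 3 and 4, and the latter were made from cells given short hairpin RNAs against Atg5, a gene required to form autophagosomes. The treatment of the control cells, the number and age of the mice and the efficiency of the hairpins are not stated in the labels. Nor do they say whether replicate libraries are separate cultures, so p-values reflect only how these libraries vary, and that variation may be technical. The labels describe, in the same words for every library, both a NEBNext Ultra preparation and preamplified cDNA built into libraries with a TruePrep kit, and do not say which was used for which library. Whether the preparation differed between the groups was not tested. The comparison asks how transcript levels change once Atg5 is targeted.

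The deposited table pools the libraries, with 0 columns of values per library, so each gene has its base mean over all 6 libraries, its log2 fold change with a standard error, and a Wald test with Benjamini-Hochberg adjusted p. Group means given below were estimated from the base mean and the fold change and carry no spread of their own. A gene was called higher or lower at an adjusted p under 0.05. Atg5-KD over control is the direction implied by the name of the table, where the knockout comes first, and the target gives no check of it, since Atg5 stood at -0.061 ± 0.14 (SE) in the authors' deposited table with an adjusted p of 0.822. Control and Atg5-KD therefore stand below for the libraries so labelled, and no direction given rests on a measured loss of Atg5.

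Of 12 granulosa and cumulus markers, base means ran from 30063 for Inha, 24381 for Inhba and 1816 for Foxl2 down to 22.1 for Has2, 9.78 for Ptx3, 6.07 for Amh and 2.34 for Cyp19a1 in the authors' deposited table. Of the 11 tested, the authors' deposited table called 2 lower, Slc38a3 at -2.19 and Foxl2 at -0.49, and 2 higher, Nr5a2 at 0.62 and Inhba at 0.45. Oocyte markers had base means of at most 19.8 and the erythroid markers Hba-a1, Hbb-bs and Hbb-bt were at 0 in the authors' deposited table. By the authors' deposited table, of 10 leukocyte markers 8 were lower in Atg5-KD, and the summed estimated level went from 2169 to 524 normalized counts. Of 5 tested markers of theca and stroma 4 were lower by the authors' deposited table, with a summed level of 6685 in control and 3553 in Atg5-KD. Endothelial markers gave 0 calls among 5 tested. Over all tested genes 10.5% were lower and 10.4% higher. In such bulk RNA fewer cells of a type and less RNA per cell cannot be told apart. The part of these differences in the synthetase values was not tested.

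Most synthetase transcripts did not pass the test. Of the 37, 1 was higher, the mitochondrial leucyl enzyme Lars2, and 2 were lower, the cytosolic valyl and tyrosyl enzymes Vars and Yars, in the authors' deposited table. These calls amount to 8.11% of the members, against 20.9% of all tested genes called in either direction, 10.4% higher and 10.5% lower. Without Lars2, the summed estimated level of the other 36 was 55462 normalized counts in control and 54891 in Atg5-KD, a ratio of 0.990. All 3 calls rest on the normal distribution of the Wald test. With a t distribution of 4 degrees of freedom, 0 of the 37 and 0 of the 14835 tested genes were called. The smallest adjusted p over all tested genes was 0.0554 there, so that setting does not set these 3 calls apart from any other. It gave adjusted p of 0.0875 for Lars2, 0.264 for Vars and 0.281 for Yars, at unadjusted p of 0.000225, 0.0452 and 0.0531.

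Levels between genes were compared per kilobase of the principal transcript. Cytosolic enzymes had base means between 410 normalized counts per kilobase for Farsb, a phenylalanyl subunit, and 1790 for the asparaginyl enzyme Nars. Mitochondrial enzymes other than Lars2 reached up to 362 for the threonyl enzyme Tars2. The lower end depended on the length taken for the methionyl enzyme Mars2, which stood at 13.7 over its GENCODE transcript of 11294 bases and at 53.5 over the 2882 bases of its RefSeq gene, while the prolyl enzyme Pars2 stood at 48.9. In 13 of 13 pairs with both a cytosolic and a mitochondrial gene, Lars2 not counted, the cytosolic transcript was the more abundant per kilobase, with a median ratio of 3.67 and a lowest ratio of 1.53 for Tars over Tars2. Mars over Mars2 was highest at 60.4 with the GENCODE length, but 15.4 with the RefSeq length, where Nars over Nars2 was highest at 27.6.

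**Figure D1:**
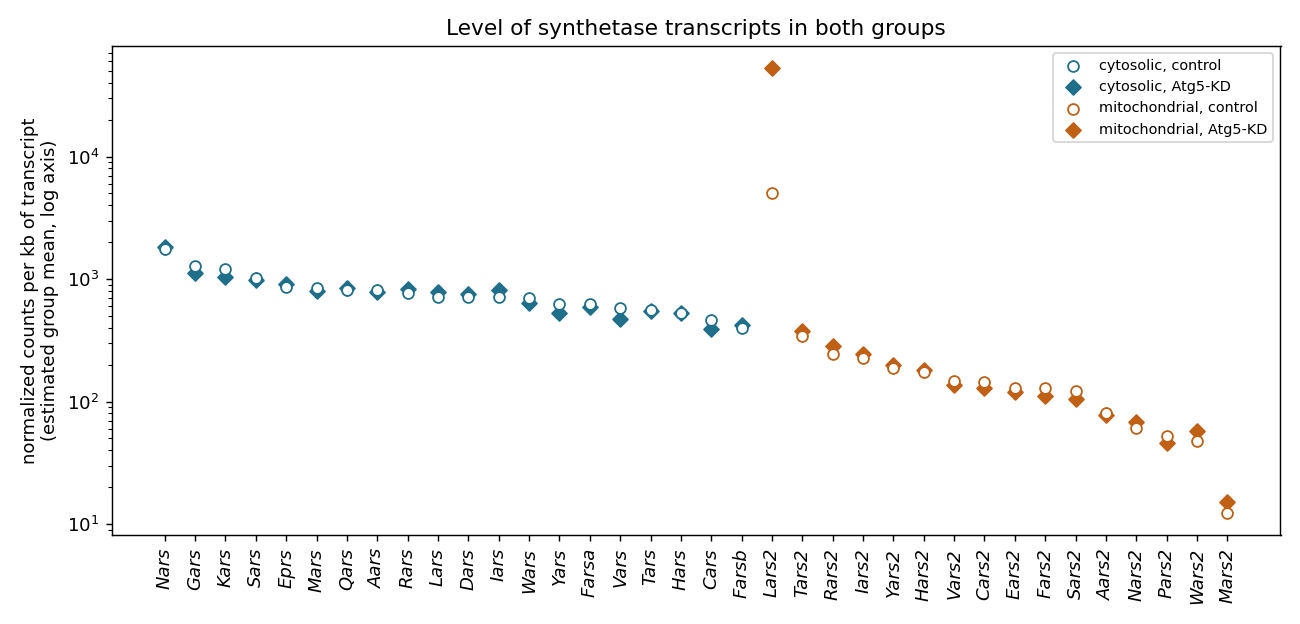
Estimated group mean of 36 of the 37 synthetase transcripts in normalized counts per kilobase of transcript (vertical, log axis), open circles for control and diamonds for Atg5-KD, with cytosolic genes on the left and mitochondrial genes on the right, ordered by control level, with GENCODE transcript lengths. No spread per library is drawn because the table holds none. Lars2 stands above all others in both groups, at 5002 in control and 52616 in Atg5-KD.

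Of the 20 cytosolic synthetases 2 were lower and 0 higher by the authors' deposited table, while 4 and 1 were at an unadjusted Wald p under 0.05. Their median log2 fold change was -0.028, beside 0.0042 over all tested genes. Among the 3591 tested genes with base means in the same range, 33.7% were called, 18% higher and 15.8% lower. These shares are at the adjusted threshold. No share of all genes is given for an unadjusted Wald p under 0.05, here or below.

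Vars, which charges valine, fell from an estimated 2392 normalized counts in control to 1934 in Atg5-KD. The authors' deposited table gave a log2 fold change of -0.31 ± 0.11 (SE) with a Wald adjusted p of 0.0235, a fall of 19.2%. Vars (gene 22321) occupies chromosome 17 from 35000907 to 35016329 in GRCm38.p6 and shares 0 exonic bases with another annotated gene. Its protein associates with the elongation factor complex eEF1, which delivers charged tRNA to the ribosome. Of 4 subunits of that complex in the list of elongation factors, Eef1g at -0.39 and Eef1b2 at -0.32 were also lower by the authors' deposited table. Eef1a1 at -0.20 (Wald adjusted p = 0.102) and Eef1d at -0.22 (Wald adjusted p = 0.200), named after their values were seen, were not called in the authors' deposited table. Of all tested genes 10.5% were lower. With a trend in mean level, GC content and length removed, Eef1g and Eef1b2 were still called lower, beside 7.09% of genes. Vars, Eef1a1 and Eef1d were not called there.

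Yars, which charges tyrosine, went from an estimated 1829 to 1525 normalized counts, a fall of 16.6%. The authors' deposited table gave -0.26 ± 0.096 (SE) with a Wald adjusted p of 0.0348. Yars (gene 107271) occupies chromosome 4 from 129189734 to 129219240 and shares 30 exonic bases with C77080 on the opposite strand. Both intervals kept clear of 0, but their upper ends, -0.098 for Vars and -0.073 for Yars, lie close to it. With a trend in mean level, GC content and length removed, neither gene was called.

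Just beyond the threshold stood the cysteinyl enzyme Cars, at -0.23 ± 0.098 (SE) with an adjusted p of 0.0754 in the authors' deposited table, and the lysyl enzyme Kars, at -0.22 ± 0.097 (SE) with an adjusted p of 0.0847. The isoleucyl enzyme Iars lay at the other end, at 0.20 ± 0.088 (SE) with an adjusted p of 0.0867 in the authors' deposited table, from an estimated 3147 normalized counts in control to 3621. None of these 3 was called.

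Enzymes of the multi-synthetase complex are Eprs, Iars, Lars, Mars, Qars, Rars, Kars and Dars, and 0 of the 8 were called in the authors' deposited table. Their median was 0.086 and 6 of 8 estimates lay above 0. Of all tested genes 20.9% were called. Scaled to all reads, 4 of the 8 were lower and 0 higher, against 38.7% and 3.6% of all tested genes. Eprs, which charges both glutamate and proline, had the smallest standard error of the family, with 0.085 ± 0.081 (SE) in the authors' deposited table. The leucyl enzyme Lars stood at 0.13 and the arginyl enzyme Rars at 0.13 in the authors' deposited table. Further members were the aspartyl enzyme Dars at 0.087, the glutaminyl enzyme Qars at 0.051 and the methionyl enzyme Mars at -0.088. The scaffolds gave like values, with Aimp1 at 0.087, Aimp2 at -0.085 and Eef1e1 at 0.059 in the authors' deposited table. Of these 3, 0 were called (0 at an unadjusted Wald p under 0.05), and scaled to all reads 1 was lower.

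Outside the complex, the tryptophanyl enzyme Wars, a known interferon target, was not called. The authors' deposited table gave it a log2 fold change of -0.15 ± 0.10 (SE) with a Wald adjusted p of 0.330, from an estimated 1287 normalized counts in control to 1163. Of 24 interferon response genes in the same comparison 23 were higher in the authors' deposited table, against 10.4% of all tested genes. Their median log2 fold change was 3.41. The upper end of the 95% interval of Wars was 0.050.

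The glycyl enzyme Gars stood at -0.19 ± 0.097 (SE) with an adjusted p of 0.172 in the authors' deposited table. Both subunits of the phenylalanyl enzyme were not called, Farsa at -0.070 and Farsb at 0.095. The alanyl enzyme Aars was at -0.060, the seryl enzyme Sars at -0.047 and the asparaginyl enzyme Nars at 0.060 in the authors' deposited table. The histidyl enzyme Hars at -0.0084 and the threonyl enzyme Tars at -0.0083 were nearest to 0. Over the 18 cytosolic enzymes not called, 95% intervals reached no lower than -0.42 (Cars) and no higher than 0.38 (Iars). With the deposited scaling, a fall of more than 25.4% or a rise of more than 29.7% thus lies outside the interval of each. These limits move with the scaling. Scaled to all reads, the estimates themselves were -0.53 for Cars and -0.52 for Kars.

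**Figure D2:**
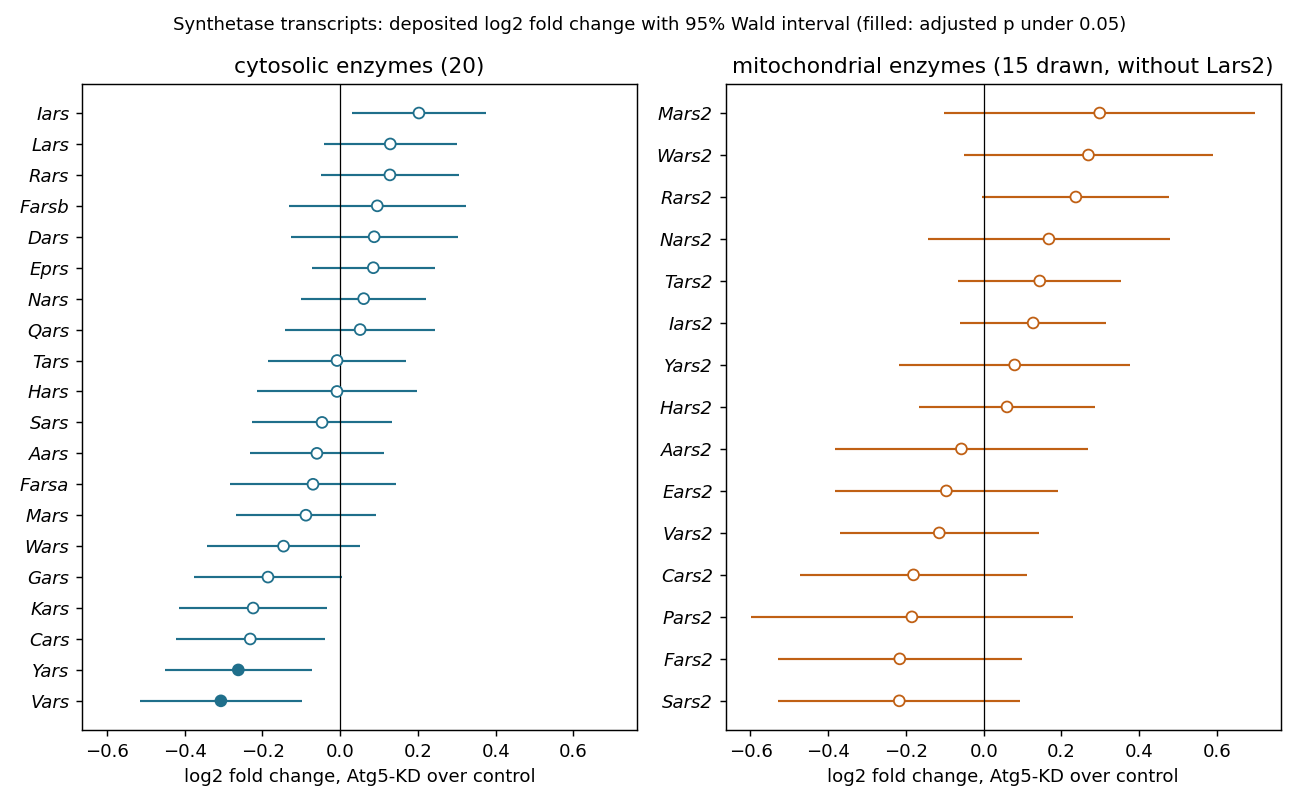
Log2 fold change (horizontal) of 20 cytosolic enzymes on the left and 15 of the 16 mitochondrial enzymes other than Lars2 on the right, with 95% Wald intervals as bars and filled points for an adjusted p under 0.05. Vars and Yars are the filled points, and every interval of a mitochondrial enzyme drawn here covers 0.

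Mitochondrial synthetases other than Lars2 gave 0 calls among 16 by the Wald test of the authors' deposited table, and also 0 at an unadjusted p under 0.05. Their median log2 fold change was 0.0013, with 8 estimates above 0 and 8 below. Among the 7713 tested genes with base means in their range, 22.4% were called, 10.6% higher and 11.9% lower. Standard errors ran from 0.095 to 0.21, against 0.081 to 0.12 in the cytosolic set. With the deposited scaling, falls up to 33.99% (Pars2) and rises up to 62.3% (Mars2) thus lie within some interval.

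The methionyl enzyme Mars2 had the largest estimate of these, 0.30 ± 0.20 (SE) in the authors' deposited table, at a base mean of 154 normalized counts. The tryptophanyl enzyme Wars2 followed at 0.27 and the arginyl enzyme Rars2 at 0.24 ± 0.12 (SE), the latter with an adjusted p of 0.167 in the authors' deposited table. Next came Nars2 at 0.17, Tars2 at 0.14, Iars2 at 0.13, Yars2 at 0.080 and Hars2 at 0.060. At the lower end the authors' deposited table placed the seryl enzyme Sars2 and the phenylalanyl enzyme Fars2, both at -0.22 ± 0.16 (SE). The prolyl enzyme Pars2 and the cysteinyl enzyme Cars2 were both at -0.18, Vars2 at -0.11, the glutamyl enzyme Ears2 at -0.096 and Aars2 at -0.057 in the authors' deposited table. The valyl and tyrosyl partners of the called cytosolic genes were therefore not called themselves. Whether Vars differed from Vars2, or Yars from Yars2, was not tested. Estimates of cytosolic and mitochondrial partners had the same sign in 7 of 13 pairs and opposite signs in 6.

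Lars2 stood apart in level and in change. The authors' deposited table gave it a base mean of 112181 normalized counts and a log2 fold change of 3.39 ± 0.27 (SE) with a Wald adjusted p of 4.52e-34, a 10.5-fold rise. The estimated means were 19477 in control and 204886 in Atg5-KD. Lars2 (gene 102436) encodes the enzyme that charges leucine in mitochondria and spans bases 123366927 to 123462675 of chromosome 9 in GRCm38.p6. Even in control its estimated level was 15.8 times that of Iars2, the next mitochondrial synthetase, and per kilobase 14.5 times that of Tars2, the highest of the others on that scale. In Atg5-KD it made up 96.9% of the summed mitochondrial synthetase counts, against 75.1% in control.

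The Lars2 row of mouse tables is known to be able to collect reads of ribosomal RNA. The ribosomal RNA locus Rn45s ranked 1 and Lars2 ranked 4 by base mean among all rows of the authors' deposited table. Rn45s went from an estimated 151955 to 2867930 normalized counts, a log2 fold change of 4.24 ± 0.32 (SE) with a Wald adjusted p of 2.55e-37 in the authors' deposited table. Among 3283 tested genes with a base mean of at least 1000, Rn45s and Lars2 had the highest 2 log2 fold changes. Mir6236, named after its value was seen, followed at 3.24. Without that limit on the base mean, 49 tested genes had a larger log2 fold change than Lars2. Standard errors of Rn45s and Lars2 were also wide for such abundant rows, 0.32 and 0.27 against a median of 0.10. The width of Lars2 was reached by 34 of the 3283. Lars2 counts equalled 12.8% of Rn45s counts in control and 7.14% in Atg5-KD, estimates with no spread of their own, and whether that share differed was not tested. The sequence of Rn45s was not used here, and the part of ribosomal RNA reads in the Lars2 row was not tested. No value in the table separates Lars2 mRNA from such reads, so the row was kept apart from the other mitochondrial enzymes throughout.

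Fold changes depended on what the libraries were scaled to. Rn45s made up an estimated 1.17% of all normalized counts in control and 17.9% in Atg5-KD. With the totals of all reads set equal, every log2 fold change shifted by -0.30, and 21 synthetases were lower (15 cytosolic and 6 mitochondrial) while 1, Lars2, stayed higher. The same scaling called 38.7% of all tested genes lower and 3.6% higher. Vars stood at -0.61 and Yars at -0.56 on that scale, and Lars2 at 3.10. With Rn45s left out of the totals the shift was -0.032, and 4 synthetases were lower, Vars, Yars, Cars and Kars. The share of all tested genes called higher and lower was 9.24% and 12.2% there. It was 9.98% and 11.1% with Lars2 left out as well, 10.2% and 10.8% with the median set to 0, and 10.4% and 10.6% with a trend in mean level removed. Adjusting over genes with a base mean of at least 50 gave 12.6% and 13.3%, and over every gene with a p-value 7.57% and 7.54%. The shares were 6.92% and 6.94% at an adjusted p under 0.01, 12.9% and 13.1% under 0.1, and 4.37% and 4.31% for a fold of at least 1.5.

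Among the 36 synthetases without Lars2, fold change ran against the GC content of the transcript. The Spearman correlation was -0.67 and Pearson's r -0.70 over the 36 genes, which share the same libraries and are not independent replicates. It was -0.74 within the 20 cytosolic and -0.74 within the 16 mitochondrial enzymes, and -0.36 over the tested genes with a known GC content. Vars, with the lowest estimate, had 60.9% GC, the highest of the 36. Mars2, with the highest estimate, had 38.8% over its GENCODE transcript, but 49.1% over its RefSeq gene, and with the latter the Spearman correlation was -0.63 over the 36 and -0.66 within the mitochondrial enzymes. Sars2 at 60.1% and Dars at 41.2% also lay near the ends. With a trend in mean level, GC content and length over all tested genes removed, Vars moved to -0.057 (adjusted p = 0.827) and Yars to -0.17 (adjusted p = 0.285). That setting called 0 synthetases lower and 2 higher, Lars2 at 3.58 and Tars2 at 0.29 (adjusted p = 0.0473), against 7.09% of genes lower and 6.31% higher, and the counts were 0 and 2 also with the RefSeq length of Mars2.

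**Figure D3:**
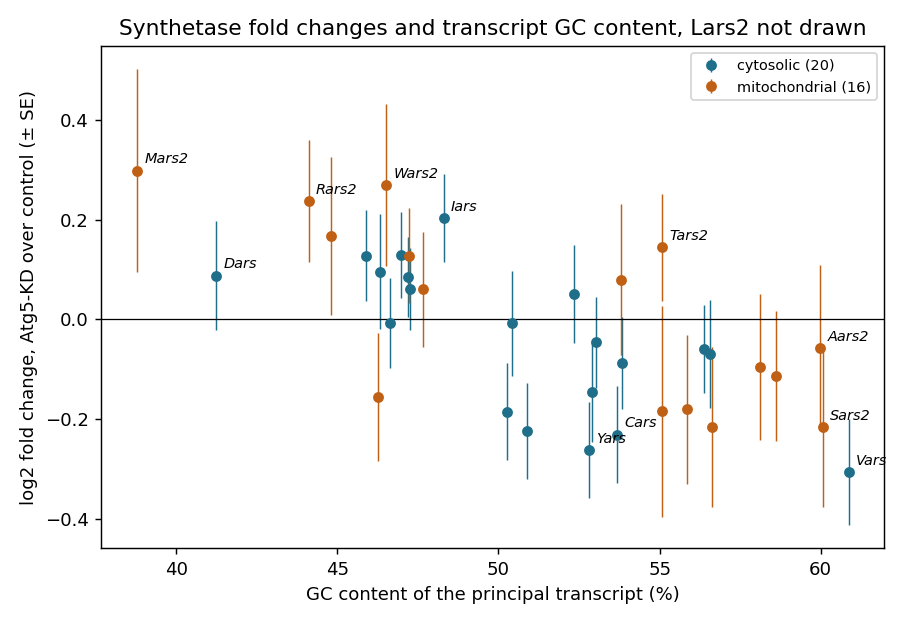
Log2 fold change with its standard error (vertical) against GC content of the principal transcript in percent (horizontal) for 36 synthetases, cytosolic in blue and mitochondrial in orange. Estimates above 0 gather under low GC content and those below 0 under high GC content, from Mars2 at 38.8% over its GENCODE transcript to Vars at 60.9%.

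Promoter windows from RefSeq (GRCm38.p6), 250 bases before to 50 after the annotated start, matched 26 of the 37 genes. Those not matched included Cars, Hars, Hars2, Lars, Mars, Nars, Pars2, Rars, Vars and Wars. The C/EBP-ATF response element, the motif that ATF4 binds with a C/EBP partner, was searched as TGATGNAA on both strands. It was present in 5 of 12 cytosolic windows, those of Aars, Gars, Iars, Tars and Yars, and in 0 of 14 mitochondrial genes, against 3.97% of all 32851 windows. All 5 belong to the 7 windows of enzymes listed as ATF4 targets. For each of these genes the match nearest the start is shown because this element is the one through which ATF4 is known to act, with 10 bases on either side, on the strand of the gene, with the motif or its reverse complement in capitals. Coordinates are those of the capitals.
Aars, chr8:111033851-111033858, plus strand, motif from base 10: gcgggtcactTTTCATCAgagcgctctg
Gars, chr6:55037971-55037978, plus strand, motif from base -30: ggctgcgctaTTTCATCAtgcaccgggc
Iars, chr13:49682137-49682144, plus strand, motif from base 8: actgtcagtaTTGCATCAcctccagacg
Tars, chr15:11399666-11399673, minus strand, motif from base -15: aggagtcccgTTGCATCAgctggttagc
Yars, chr4:129189906-129189913, plus strand, motif from base 4: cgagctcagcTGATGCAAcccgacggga

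Positions count from the start that RefSeq's window is built on, with 1 as its first base. For Gars, Iars and Tars that is the outermost start of the gene, while for Yars it lies 169 bases and for Aars 6064 bases inside the annotated gene. The 5 genes with a match stood at the following log2 fold changes, Yars at -0.26, Gars at -0.19, Aars at -0.060, Tars at -0.0083 and Iars at 0.20 in the authors' deposited table, and 1 of them, Yars, was called. With scaling to all reads they lay at -0.56, -0.48, -0.36, -0.31 and -0.097 in the same order, and all but Iars were called lower. That scaling called 15 of the 20 cytosolic synthetases and 38.7% of all tested genes lower. The interferon-stimulated response element, searched on both strands, was present in 1 window, that of Qars, against 3.44% of all windows. A match is a description of letters and no evidence that a factor binds there.

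Of 12 cytosolic synthetases listed as ATF4 targets (Aars, Cars, Eprs, Gars, Iars, Lars, Mars, Nars, Sars, Tars, Wars and Yars), 1, Yars, fell and 0 rose by the authors' deposited table, with a median of -0.053. Of the 8 others 1, Vars, fell and 0 rose, with a median of 0.021. Atf4 itself was not called, at -0.11 ± 0.096 (SE) with an adjusted p of 0.446 in the authors' deposited table. The list of ATF4 targets outside the synthetases holds 26 genes of amino acid synthesis, transport and stress, with Atf4 itself counted among them. A gene of tRNA export in it is also counted in the list of tRNA maturation below. Of all tested genes 10.5% were lower and 10.4% higher. Of the 26, 13 fell and 2 rose by the authors' deposited table, with a median of -0.30. Among the lower ones were the stress protein Nupr1 at -0.85 ± 0.14 (SE), the amino acid transporter Slc7a5 at -0.56 ± 0.10 (SE), the mitochondrial serine enzyme Shmt2 at -0.54 ± 0.10 (SE) and the mitochondrial enzyme Pck2 at -0.42 ± 0.089 (SE) in the authors' deposited table. The 2 that rose were the transcription factors Ddit3 at 0.66 and Cebpg at 0.29, picked out once their values were known. Scaled to all reads the 26 had 1 higher and 21 lower, and the 12 synthetases 0 and 10, against 3.6% and 38.7% of all tested genes. With the trend in GC content removed the 26 had 2 higher and 10 lower, and the 12 synthetases 0 and 0, against 6.31% and 7.09% of genes. The higher ones among the 26 were then Ddit3 at 0.78 and Atf3 at 0.69, in place of Cebpg at 0.13 (Wald adjusted p = 0.534). Whether the synthetases differed from the other targets was not tested.

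Genes on either side of the charging reaction were mostly not called, beside 10.5% of all tested genes called lower and 10.4% higher. Of 29 genes of tRNA maturation, export and proofreading, 2 fell and 0 rose by the authors' deposited table, with a median of 0.025. These were Tsen34, a subunit of the endonuclease that cuts introns from tRNA, at -0.40 ± 0.11 (SE), and Aarsd1, an alanyl-tRNA editing protein, at -0.41 ± 0.14 (SE) in the authors' deposited table. With the GC trend removed neither was called, at -0.20 and -0.26. Tarsl2, the threonyl synthetase paralog outside the symbol rule and named after its value was seen, stood at 0.24 ± 0.16 (SE) in the authors' deposited table. Scaled to all reads, 13 of the 29 were lower and 0 higher, against 38.7% and 3.6% of all tested genes.

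Of 20 genes of mitochondrial tRNA charging and translation, 1 fell and 1 rose by the authors' deposited table, with a median of -0.030. Over all tested genes 10.5% were lower and 10.4% higher. Hsd17b10, a subunit of the enzyme that trims mitochondrial tRNA, was at -0.45 ± 0.11 (SE), and Gfm2, which recycles mitochondrial ribosomes, at 0.35 ± 0.11 (SE) in the authors' deposited table. Scaled to all reads, 8 of the 20 were lower and 0 higher, against 38.7% and 3.6% of all tested genes. In the cytosol, 3 of 8 elongation and release factors fell and 1 rose by the authors' deposited table, with a median of -0.23. Eef2, which moves the ribosome along the mRNA, stood at -0.51 ± 0.082 (SE), and the release factor Etf1 at 0.26 ± 0.087 (SE) in the authors' deposited table. Scaled to all reads 7 of these 8 were lower and 0 higher, beside the same 38.7% and 3.6% of all tested genes. With the GC trend removed 3 were lower and 0 higher, against 7.09% and 6.31% of genes. The 3 were Eef2 at -0.23, Eef1g at -0.29 and Eef1b2 at -0.35.

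**Figure D4:**
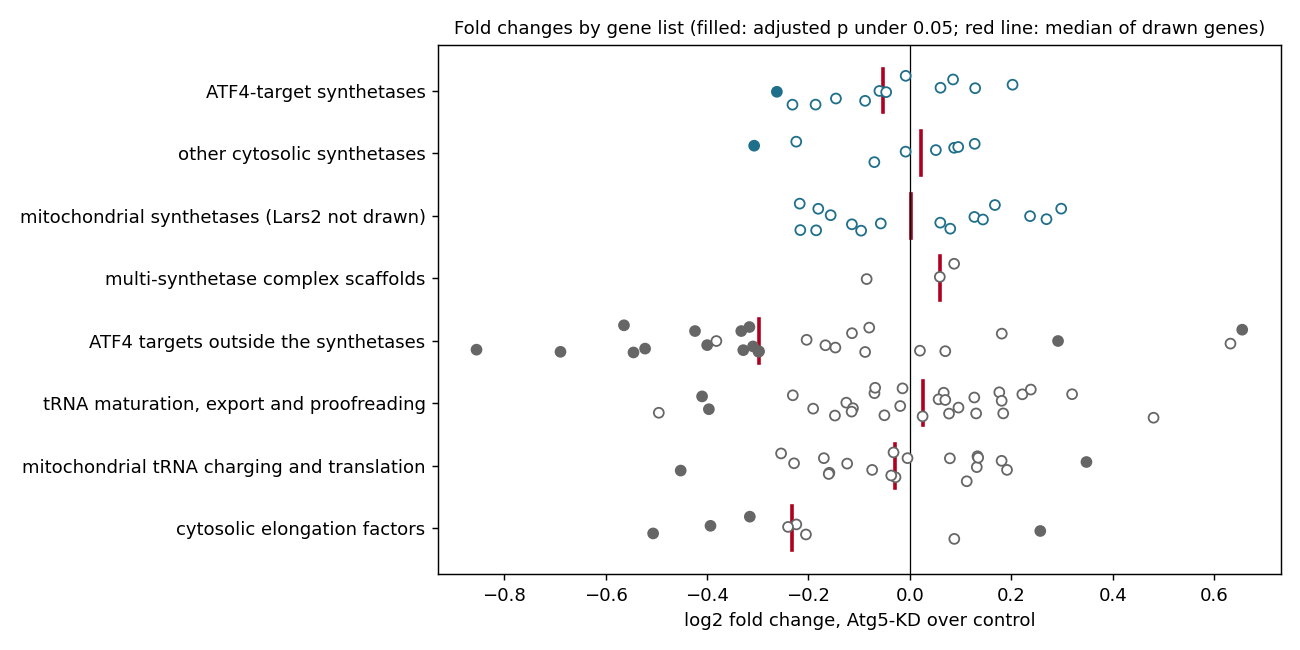
Log2 fold change (horizontal) of each tested gene in 8 lists (rows), filled where the adjusted p is under 0.05, with a red line at the median of the drawn genes; vertical scatter within a row has no meaning and Lars2 is not drawn. Synthetase rows lie between -0.31 and 0.30, while the ATF4 targets outside the family reach from -0.85 to 0.66.

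Exons of 14 members overlap those of another annotated gene, and the sources used here do not say whether counting used strand, so reads of both genes cannot be told apart there. Among them the overlaps took up 22.9% of the exonic bases of Iars2 (with Rab3gap2), 14.3% of Aars (with Exosc6) and 9.47% of Farsb (with Sgpp2). Exosc6 lies on the same strand as Aars, so strand would not separate that overlap. Rab3gap2 and Sgpp2 lie on the strand opposite to Iars2 and Farsb. Hars and Hars2, which are transcribed away from each other, share 195 bases.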

How the data were processed

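RNA of 6 libraries was compared, 3 labelled control and 3 labelled Atg5-KD. Tools named in the submitters' processing notes, without role or order, are DESeq2 1.30.1, STAR, StringTie 2.1.4 and featureCounts 1.6.2, with the build mm10. Per the file headers the deposited table has the columns of DESeq2 results. Its base mean is a signal the authors made, read counts divided by size factors and averaged over libraries. Log2 fold changes and standard errors on the log2 scale, the Wald statistic (a score) and each p-value with its adjusted form are likewise the authors' deposited values. There are 0 columns per library, so depth per library is unknown. The statistic, p and adjusted p were recomputed and 0 rows differed at a tolerance of 1e-06.

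Group means were estimated from base mean and fold change (Python 3.11.15, pandas 2.3.3, scipy 1.17.1); they sum to 13030800 normalized counts in control and 16031900 in Atg5-KD. Transcript length and GC content came from GENCODE M21 (GRCm38), with 1 principal transcript a gene, and gave a value for all 37 members and 99.0% of tested genes. Trends were fitted with a Huber regression on cubic terms (statsmodels 0.14.6). Alternatives changed the scaling, trend, null distribution, filter or threshold. The calling step was also run on simulated normal errors with the deposited standard errors. That run checks its arithmetic only and cannot test the null distribution, the scaling or the replicates. The text names every member but 1 mitochondrial enzyme, counted throughout and not reported here by its own values, the 3 scaffolds, and in each other list up to 4 called genes of smallest adjusted p, with Atf4, cell type markers and a few genes chosen after their values were seen. Members and lists were chosen with earlier results of these data known.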

Additional observations from a re-analysis of the deposited data

How the results depend on the processing

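The call of Lars2 held under every alternative but one, with log2 fold changes from 3.10 to 3.58. Counts of called synthetases moved as follows. Scaled to all reads, 21 were lower (15 cytosolic, 6 mitochondrial), as were 38.7% of all tested genes. With Rn45s left out of the totals 4 cytosolic genes were lower, beside 12.2% of all tested genes. With the trend in mean level, GC content and length removed, 2 mitochondrial genes were higher and 0 of either set lower. Of all genes in that setting 6.31% were higher and 7.09% lower. A t distribution with 4 degrees of freedom in place of the normal called 0 members, Lars2 included (adjusted p = 0.0875), and 0 of all tested genes, with Lars2 and Vars past an unadjusted p of 0.05. An adjusted p under 0.01, or a fold of at least 1.5, left 0 lower, beside 6.94% and 4.31% of all tested genes in that order. An adjusted p under 0.1 gave 2 higher (1 cytosolic) and 4 lower, all cytosolic, against 12.9% and 13.1% of all tested genes. Adjusting over other sets of genes, removing the trend with mean level alone, setting the median to 0, or leaving Rn45s and Lars2 out of the totals (an alternative chosen after seeing the data) gave the counts of the report.

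Scaled to all reads, 16 synthetases changed sign. These were Qars at -0.25, Nars at -0.24, Eprs at -0.21, Dars at -0.21, Farsb at -0.20, Rars at -0.17, Lars at -0.17, Iars at -0.10, Hars2 at -0.24, Yars2 at -0.22, Iars2 at -0.17, Tars2 at -0.15, Nars2 at -0.13, Rars2 at -0.062, Wars2 at -0.030 and Mars2 at -0.00071. With the GC trend removed 11 did. These were Mars at 0.029, Farsa at 0.12, Aars at 0.053, Sars at 0.044, Hars at 0.038, Dars at -0.058, Sars2 at 0.037, Vars2 at 0.071, Ears2 at 0.12, Aars2 at 0.18 and Mars2 at -0.14, which was 0.29 (adjusted p = 0.428) with the length and GC content of its RefSeq gene, an alternative chosen after seeing the data. No paired analysis was possible because the table holds no values per library, and leaving out single libraries and a second count tool could not be run for the same reason.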
